A study of Mus musculus with 4 samples.

Results

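The follicular regulatory genes around *Cxcr5* are 8 genes, *Cxcr5*, *Bcl6*, *Tox2*, *Tox*, *Sh2d1a*, *Il21r*, *Slamf6* and *Cd200*, out of 47729 Ensembl genes counted in regulatory T (Treg) cells. They were selected by name for their known roles in follicular T cells, and on earlier results of the comparison of WT with TfR1-deficient libraries, so their values in that comparison are given as a description and without a test. All 8 were matched to 1 row of the count table each, and all 8 passed the filter on low counts that left 12536 genes for testing. RNA came from Treg cells sorted by YFP and CD25 from female C57BL/6 mice, 2 libraries from WT animals, *Tfrc* +/+ with *Foxp3* YFP-Cre/+, and 2 from TfR1-deficient animals, in which *Tfrc* is fl/fl and *Foxp3* again YFP-Cre/+. The tissue label is spleen, while a legend of the study names lymph nodes too for this experiment, so the cells may come from both. The study's reporting summary gives an age of 6 to 8 weeks for mice other than males that lack *Tfrc* in all Treg cells, and pooling of animals is not given in the sources used here. Both genotypes carry the Cre allele, which is driven from the X-linked *Foxp3* locus together with YFP. A heterozygous female therefore keeps Treg cells without Cre and YFP, in which a floxed *Tfrc* allele stays intact, and the sort takes the YFP+ cells. The labels number the libraries as replicates 1 and 2 within a genotype.

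T follicular regulatory cells are Foxp3+ cells that enter B cell follicles and restrain the germinal centre reaction. They share much of their programme with T follicular helper cells, which the transcriptional repressor Bcl6 directs and Blimp-1, encoded by *Prdm1*, opposes. CXCR5 reads the follicular chemokine CXCL13, and SAP, encoded by *Sh2d1a*, couples receptors of the SLAM family to kinases during contact with B cells.

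Totals ran from 10841939 to 17278448 counts per library, and values are TMM-scaled CPM, the counts of a gene relative to the scaled library total. *Tfrc* was at 50.8 and 54.1 CPM in WT and at 56.1 and 48.3 CPM in labelled-deficient libraries, so counts over the whole gene do not show the deletion, and each direction given here rests on the labels. These libraries are therefore called labelled-deficient. *Foxp3* was at 194 and 130 CPM in WT and at 122 and 114 CPM in labelled-deficient libraries. WT library 1 and labelled-deficient library 2 stood apart from the others before any comparison of genotypes. The summed level of 15 macrophage genes was 949 and 2910 CPM in these, against 87.0 CPM in WT library 2 and 59.6 CPM in labelled-deficient library 1. The summed level of 10 proliferation genes was 794 and 717 CPM in the same pair, against 209 and 212 CPM. The log2 ratios of the members are therefore also given for each pair of like libraries, WT 2 with labelled-deficient 1 and WT 1 with labelled-deficient 2. For other genes they are given only where stated.

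*Cxcr5*, the chemokine receptor that leads T cells into the B cell follicle, was the member with the largest difference. Its level was 55.7 and 58.1 CPM in WT, and 24.9 and 29.0 CPM in the labelled-deficient ones. The replicates lay close together, and both labelled-deficient libraries were below both WT libraries. The group means were 56.9 ± 1.68 CPM and 26.9 ± 2.89 CPM (SD, n = 2 each), so the level was 47.3% of that in WT. The log2 fold change from edgeR was -1.08 with an SE, the standard error, of 0.17. These values rest on 681 and 620 counts in WT and on 432 and 397 counts in labelled-deficient libraries. The difference was present in both pairs of like libraries, with a log2 ratio of -1.22 in the pair with low macrophage counts and -0.94 in the pair with high ones, and it stayed between -1.20 and -0.94 with any 1 library left out. Among all tested genes, 1.68% had a lower log2 fold change. *Cxcr5* (ENSMUSG00000047880) lies on chromosome 9 at 44319871 to 44334504 on the minus strand in GENCODE vM1 on mm9. In bulk RNA, fewer cells of a type and less RNA per cell cannot be told apart.

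**Figure D1:**
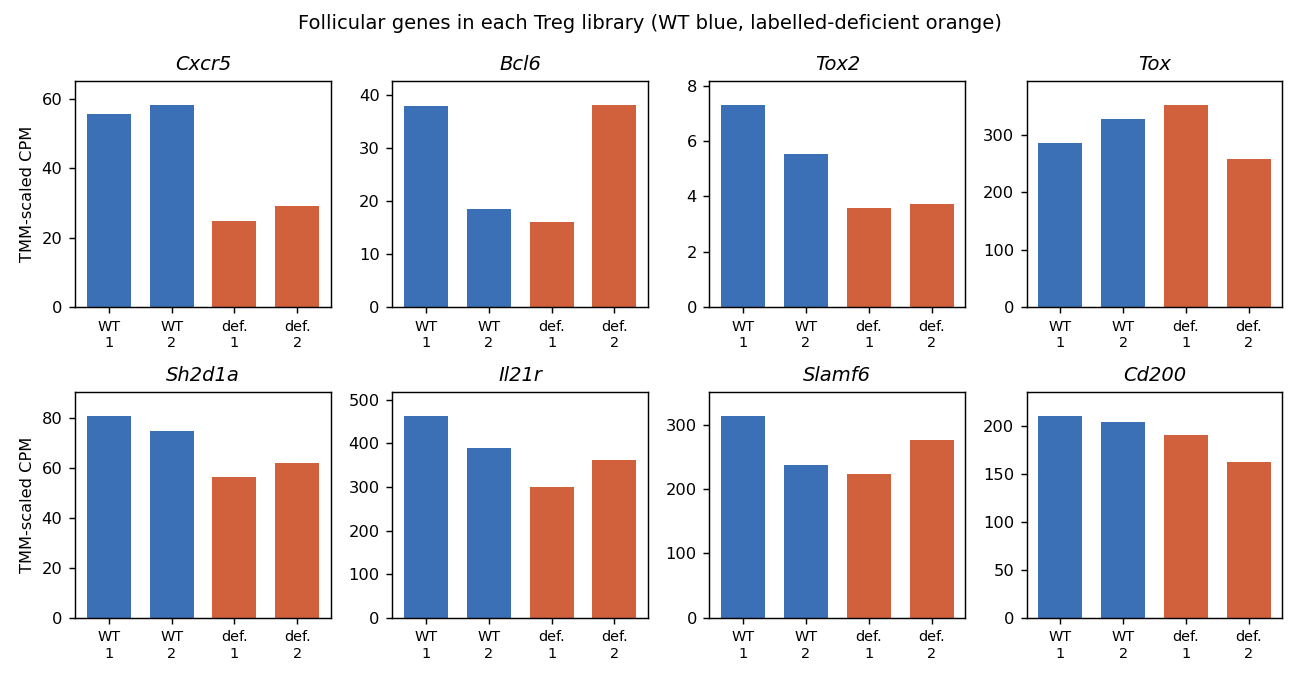
TMM-scaled CPM (y axes, from 0, a scale per gene) of the 8 follicular genes in each of the 4 libraries, WT in blue and labelled-deficient in orange, 1 bar per library. *Cxcr5* was at 55.7 and 58.1 CPM in WT and 24.9 and 29.0 CPM in labelled-deficient libraries, whereas *Bcl6* was high in 1 library of each genotype, at 38.0 and 38.1 CPM.

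B cells also express *Cxcr5*, *Bcl6*, *Slamf6*, *Il21r* and *Cd200*, so B cell markers were read in the same libraries. Of a list of 15 B cell genes, 14 were matched, and 9 of these were under 1 CPM in every library. *Ms4a1*, which encodes CD20, was at 0.469 CPM or less and *Pax5*, the factor that commits cells to the B lineage, at 0.438 CPM or less. The summed level of the list ran from 1320 to 1590 CPM in WT and from 1140 to 1280 CPM in labelled-deficient libraries, nearly all of it from *Ighm*. Without *Ighm* it was 47.3 and 53.5 CPM in WT and 45.0 and 63.8 CPM in labelled-deficient libraries. Apart from *Ighm*, the most abundant genes of the list were *Cd79b*, a subunit of the B cell receptor, at 24.1 and 38.5 CPM in WT and 34.1 and 28.6 CPM in labelled-deficient libraries, and *Bank1*, a B cell adaptor, at 14.2 and 8.15 CPM in WT and 6.22 and 29.4 CPM in labelled-deficient libraries. The groups overlapped for both genes, and the part of B cell RNA in the *Cxcr5* values was not tested.

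**Figure D2:**
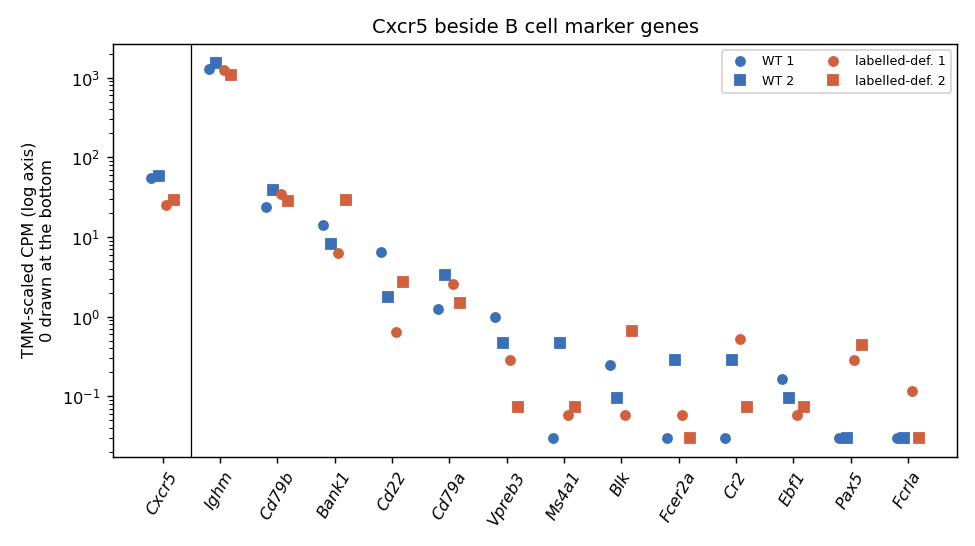
TMM-scaled CPM on a log axis of *Cxcr5* and 13 B cell marker genes, 1 point per library (WT blue, labelled-deficient orange, circle for library 1 and square for library 2), with libraries at 0 drawn at the bottom. *Ms4a1* and *Pax5* lay below 0.5 CPM in each library, while *Ighm* lay at 1080 CPM or above and *Cd79b* between 24.1 and 38.5 CPM.

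The transcription factors of the group behaved unlike each other. *Tox2*, an HMG-box factor that acts with Bcl6 in follicular helper cells, was at 7.29 and 5.53 CPM in WT and at 3.57 and 3.72 CPM in labelled-deficient libraries. Both groups were separate, with a log2 fold change of -0.81 (SE 0.35), but the gene had only 89, 59, 62 and 51 counts in the 4 libraries. The log2 ratio was -0.61 in the pair with low macrophage counts and -0.94 in the pair with high ones. *Tox2* (ENSMUSG00000074607) lies on chromosome 2 at 163028861 to 163149906 on the plus strand (mm9).

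*Bcl6*, the repressor that defines the follicular programme, was at 38.0 and 18.5 CPM in WT and at 16.1 and 38.1 CPM in labelled-deficient libraries. The groups overlapped almost completely, and the log2 fold change was -0.06 (SE 0.53). The difference within a genotype was larger than that between genotypes, at 1.03 on the log2 scale between WT libraries 1 and 2 and 1.23 between labelled-deficient libraries 2 and 1. Both high libraries were those with more macrophage and proliferation RNA, and the part of these in the *Bcl6* values was not tested. Between like libraries *Bcl6* differed by -0.19 and by less than 0.01 on the log2 scale, and the sign of its fold change turned with the library left out, from -0.81 without labelled-deficient library 2 to 0.58 without WT library 1. *Bcl6* (ENSMUSG00000022508) lies on chromosome 16 at 23965138 to 23988938 on the minus strand (mm9), 8.62 Mb from *Tfrc*.

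*Tox*, a relative of *Tox2* that is also made outside follicles, was at 286 and 327 CPM in WT and at 351 and 257 CPM in labelled-deficient libraries, with a log2 fold change of -0.01 (SE 0.20). The libraries overlapped, and the sign of this value turned with scaling by total library size (0.03). The like pairs gave 0.10 and -0.15. In the same family *Tox4* was at 297 and 306 CPM in WT and at 273 and 268 CPM in labelled-deficient libraries, and *Tox3* had 2 counts in all. *Tox* (ENSMUSG00000041272) lies on chromosome 4 at 6613500 to 6918704 on the minus strand (mm9).

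Because the study also examined the hypoxia-inducible factor HIF-2α, the 250 bases before the first listed RefSeq start of the members were searched on both strands for its core letters, ACGTG and GCGTG. Sequences of GRCm38.p6 were matched for 5 members, *Bcl6*, *Tox2*, *Il21r*, *Slamf6* and *Cd200*, and those of *Bcl6* and *Tox2* are shown as the only 2 of the 5 with such letters, with each motif match in capitals.
*Bcl6*, chr16:23988853-23989102, minus strand: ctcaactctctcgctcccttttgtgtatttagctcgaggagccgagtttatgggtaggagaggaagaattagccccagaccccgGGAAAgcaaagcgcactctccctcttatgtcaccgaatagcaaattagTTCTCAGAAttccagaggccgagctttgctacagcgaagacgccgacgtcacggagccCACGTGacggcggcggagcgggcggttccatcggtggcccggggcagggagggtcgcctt
*Tox2*, chr2:163202877-163203126, plus strand: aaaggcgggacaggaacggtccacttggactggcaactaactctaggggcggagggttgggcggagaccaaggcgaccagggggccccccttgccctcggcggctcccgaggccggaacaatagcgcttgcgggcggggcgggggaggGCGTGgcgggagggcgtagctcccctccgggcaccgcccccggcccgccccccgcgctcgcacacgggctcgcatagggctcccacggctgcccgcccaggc
The *Bcl6* window holds CACGTG, which reads as ACGTG on both strands, and also 1 match each to GGAAA (the core of NFAT sites) and TTCNNNGAA (a STAT site), which do not overlap it. The *Tox2* window holds GCGTG. At the other listed starts of *Bcl6* and *Tox2* neither ACGTG nor GCGTG was found. No window was at hand for the 3 members *Cxcr5*, *Tox* and *Sh2d1a*. Of all 32851 windows of this length, 16.6% hold ACGTG, 28.2% GCGTG, 55.6% GGAAA and 7.0% TTCNNNGAA. The AP-1 letters TGANTCA, in 6.7% of all windows, matched none of the 5 members. A match is a stretch of letters and not a measured site, and these windows stop at the start site.

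The receptors and the adaptor of the group differed less than *Cxcr5*. *Sh2d1a*, which encodes SAP, was at 80.9 and 74.7 CPM in WT and at 56.6 and 62.1 CPM in labelled-deficient libraries. *Il21r*, the receptor for the follicular cytokine IL-21, was at 463 and 389 CPM in WT and at 299 and 362 CPM in labelled-deficient libraries. For both genes each labelled-deficient library was below each WT library, with log2 fold changes of -0.39 (SE 0.14) for *Sh2d1a* and -0.37 (SE 0.17) for *Il21r*. The pairs of like libraries gave close values, -0.40 and -0.38 for *Sh2d1a* and -0.38 and -0.35 for *Il21r*. A list of 8 Treg and T cell marker genes was read beside them, of which *Il2ra* and *Tnfrsf18* are also on the programme lists below. Of these 8 genes, 4 were likewise lower in both labelled-deficient libraries than in both WT libraries and 0 higher in both. Of all tested genes, 18.9% were lower and 16.0% higher. Among the 8 marker genes *Cd3e* had a log2 fold change of -0.43 (SE 0.16), *Cd4* of -0.44 (SE 0.18) and *Foxp3* of -0.46 (SE 0.22), while *Cd3g* was at -0.13 (SE 0.14) and *Trac* at -0.09 (SE 0.23). Their part in the values of *Sh2d1a* and *Il21r* was not tested. *Sh2d1a* (ENSMUSG00000005696) lies on chromosome X at 39855630 to 39876874 and *Il21r* (ENSMUSG00000030745) on chromosome 7 at 132746943 to 132777084, both on the plus strand (mm9).

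*Cd200*, a surface protein of follicular helper cells that binds an inhibitory receptor on myeloid cells, was at 211 and 205 CPM in WT and at 191 and 163 CPM in labelled-deficient libraries. The groups did not overlap, but the log2 fold change was small at -0.24 (SE 0.15), and the like pairs gave -0.10 and -0.38. *Slamf6*, a SLAM receptor that signals through SAP, was at 314 and 238 CPM in WT and at 224 and 276 CPM in labelled-deficient libraries. Its groups overlapped, with a log2 fold change of -0.14 (SE 0.20), and as with *Bcl6* the higher library of each genotype was the one with more macrophage and proliferation RNA. The like pairs gave -0.09 and -0.19 for *Slamf6*. Leaving out WT library 1 turned its sign (0.09), and so did leaving out labelled-deficient library 1 (0.03). *Cd200* (ENSMUSG00000022661) lies on chromosome 16 at 45382248 to 45409166 on the minus strand, 12.7 Mb from *Tfrc*, and *Slamf6* (ENSMUSG00000015314) on chromosome 1 at 173847646 to 173879083 on the plus strand (mm9). Since *Bcl6* and *Cd200* share a chromosome with the floxed *Tfrc* allele, alleles linked to it and the loss of TfR1 cannot be told apart for these 2 members.

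**Figure D3:**
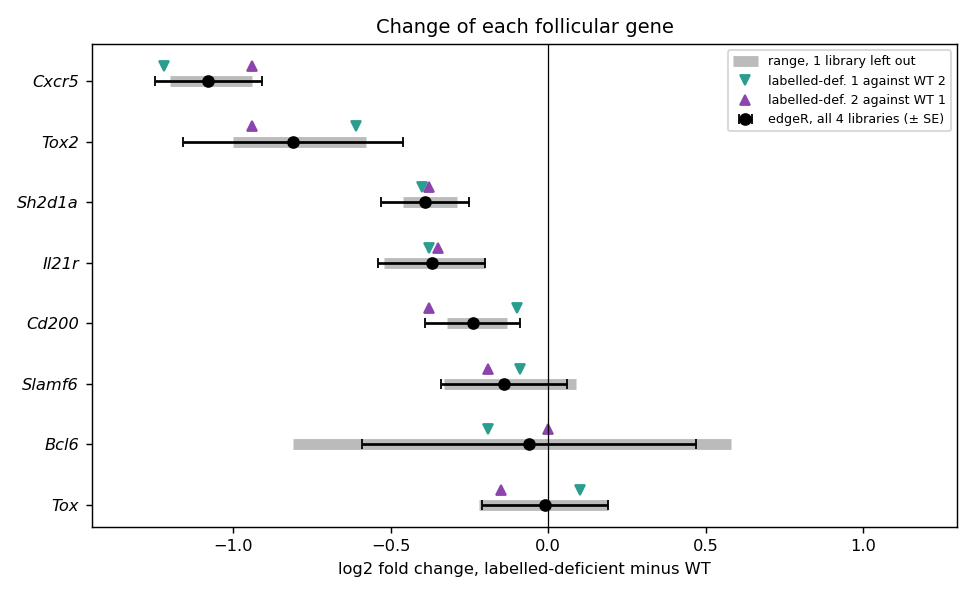
Log2 fold change of each follicular gene, labelled-deficient minus WT (x axis). Black points are edgeR estimates with SEs from all 4 libraries, grey bars the range with 1 library left out, and triangles the log2 ratios within pairs of like libraries. *Cxcr5* and *Tox2* lie furthest left at -1.08 and -0.81, and the grey bar of *Bcl6* runs from -0.81 to 0.58.

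Over the group, 5 of the 8 members (62.5%) were lower in both labelled-deficient libraries than in both WT libraries, and 0 were higher in both. The background is 18.9% lower and 16.0% higher among the 12536 tested genes, and nothing is read from the comparison because this contrast was used to select the members. Their median log2 fold change was -0.30, against 0.01 for all tested genes. It was -0.29 in the pair with low macrophage counts and -0.37 in the pair with high ones. With 1 library left out it ran from -0.21 to -0.49, and it was -0.47 without WT library 2 and -0.49 without labelled-deficient library 2.

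Levels per kilobase of exon (RPKM, with GENCODE vM1 exon lengths) put the members in 1 order that held in 4 of 4 libraries. *Il21r* was highest, at a mean of 164 RPKM in WT and 127 RPKM in labelled-deficient libraries, followed by *Slamf6* (98.5 and 89.2 RPKM), *Cd200* (62.6 and 53.2 RPKM) and *Tox* (40.3 and 40.0 RPKM). *Sh2d1a* was at 28.5 and 21.7 RPKM and *Cxcr5* at 21.8 and 10.3 RPKM. The 2 lowest were *Bcl6*, at 4.21 and 4.05 RPKM, and *Tox2*, at 1.88 and 1.07 RPKM. The neighbours *Sh2d1a* and *Cxcr5* were closest in WT library 2, at 27.4 and 22.2 RPKM. In labelled-deficient libraries they were further apart, at 20.7 and 9.52 RPKM in library 1. *Tox* and *Cd200* came nearest in labelled-deficient library 1, at 46.2 and 57.5 RPKM.

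**Figure D4:**
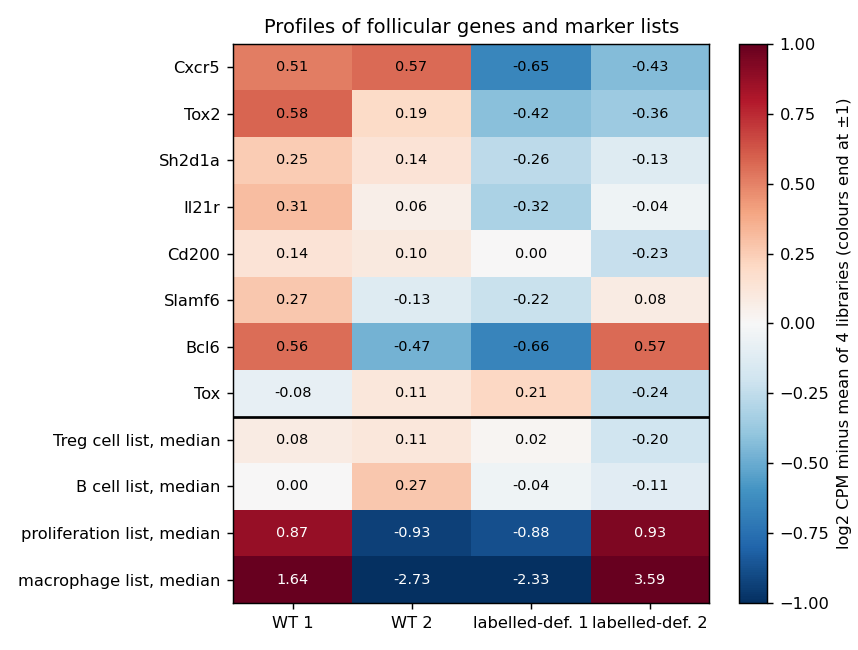
Log2 CPM of each follicular gene minus its mean over the 4 libraries, with the same for the median of 4 marker lists below the line (colours end at ±1, values are printed in the cells). *Cxcr5* separates the genotypes, at 0.51 and 0.57 against -0.65 and -0.43, while *Bcl6* and the proliferation and macrophage lists were above their means in WT library 1 and labelled-deficient library 2 and below them in the other two.

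Profiles across the 4 libraries were compared by the distance between log2 CPM values centred on each gene's mean, among genes with a mean of at least 5 CPM. The 5 genes closest to *Cxcr5* out of 9361 were *Mrgpre* (distance 0.0937), *Prg4* (0.128), *Maf* (0.186), the unnamed gene ENSMUSG00000097352 (0.196) and *Iqce* (0.209). *Maf*, which encodes the transcription factor c-Maf, was at 62.0 and 68.4 CPM in WT and at 28.4 and 38.2 CPM in labelled-deficient libraries. *Prg4*, which encodes the lubricating proteoglycan lubricin, was at 68.7 and 63.3 CPM in WT and at 28.9 and 32.9 CPM in labelled-deficient libraries. Of the other members *Tox2* was nearest to *Cxcr5*, at a distance of 0.454 and rank 68, and *Bcl6* the farthest, at 1.44 and rank 7627. With 4 libraries such a likeness describes these samples only.

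The other genes of the follicular programme were read from 7 lists of 72 genes in all, of which 71 were matched and 65 were tested. Their median log2 fold change was -0.22, and 31 of the 65 (47.7%) were lower in both labelled-deficient libraries than in both WT libraries, while 6 (9.23%) were higher in both, against 18.9% and 16.0% of all tested genes. With a log2 change of 0.5 or more in size and an adjusted p-value under 0.05 (edgeR quasi-likelihood, Benjamini-Hochberg), the test called 0 of the 65, as it called 0 of all tested genes (0%). An alternative chosen after the data were seen took the pairs of like libraries as a block. There edgeR called 9 list genes lower at the adjusted p-value, and 210 lower and 150 higher of all 12536 tested genes. With no filter on low counts it called 7 list genes lower. Of all 22368 genes with a count it then called 95 lower and 167 higher. At an unadjusted p-value under 0.05 with the same minimum change, 7 of the 65 were lower and 0 higher, against 2.48% lower and 1.60% higher among all tested genes. DESeq2 called 2 of the 65 lower and 0 higher at its adjusted p-value, against 0.263% lower and 0.0479% higher of all tested genes. Each list was picked when earlier results of these data were known. The shares of all tested genes are therefore given as a description, and no enrichment is read from them. This holds for the pooled lists and for the single lists below. The median log2 ratio of the list genes was -0.20 in the pair with low macrophage counts and -0.19 in the pair with high ones.

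**Figure D5:**
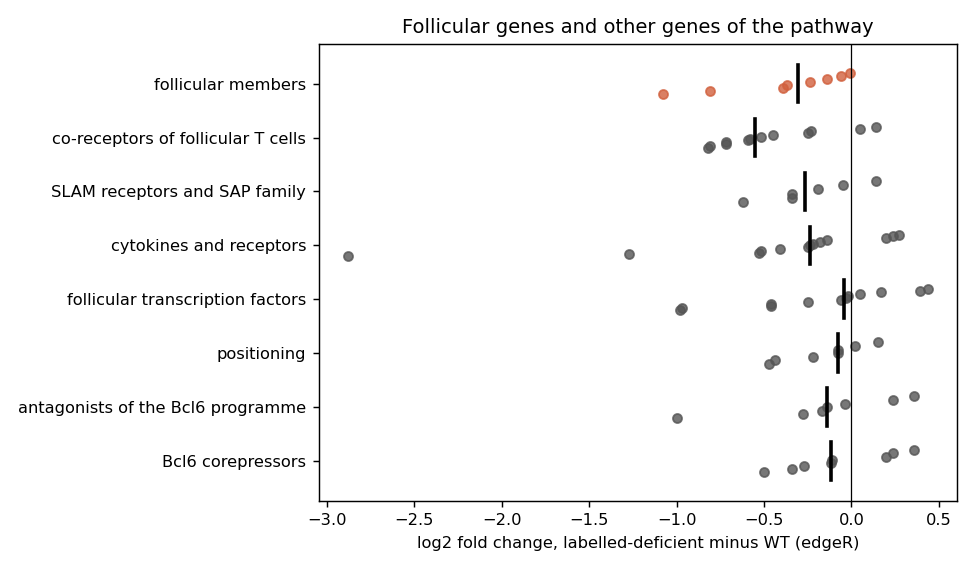
Log2 fold changes, labelled-deficient minus WT (x axis, edgeR), of the 8 follicular genes (orange) and the tested genes of 7 lists of the programme (grey), 1 point per gene with a bar at the median of each list. The median of the co-receptors was lowest at -0.55, and that of the transcription factors was -0.04.

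The co-receptors held the lowest list median. Of 12 co-receptors of follicular T cells, 8 were lower in both labelled-deficient libraries than in both WT libraries and 0 were higher in both. The shares of all tested genes were again 18.9% and 16.0%. Nothing is read from the comparison, because this list was also chosen with earlier results known. Lower at the unadjusted p-value were 3 of the 12, against 2.48% of all tested genes. These were *Ctla4*, the inhibitory receptor by which T follicular regulatory cells restrain B cell help, *Tigit*, another inhibitory receptor, and *Tnfsf8*, encoding CD30 ligand. Their log2 fold changes were -0.81 (SE 0.13), -0.82 (SE 0.17) and -0.58 (SE 0.18), each with an adjusted p = 0.911 in edgeR, and *Ctla4* had an adjusted p = 0.000728 in DESeq2. *Tigit* lies on chromosome 16, 11 Mb from *Tfrc*, so alleles linked to the floxed allele and the loss of TfR1 cannot be told apart for it. *Ctla4* was at 407 and 427 CPM in WT and at 241 and 235 CPM in labelled-deficient libraries, so the replicates lay close together. *Icos* and *Pdcd1*, costimulatory and inhibitory receptors that are high on follicular cells, had log2 fold changes of -0.59 (SE 0.23) and -0.72 (SE 0.29) and did not pass the unadjusted threshold. *Cd200r1*, the receptor for CD200, was at 28.6 and 31.8 CPM in WT and at 25.5 and 25.3 CPM in labelled-deficient libraries.

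Among 12 tested transcription factors of the programme the median was -0.04, and the genes went both ways. *Maf* and *Irf4*, which act in effector and follicular T cells, were lower at the unadjusted p-value, with log2 fold changes of -0.97 (SE 0.20) and -0.98 (SE 0.37) and an adjusted p = 0.911 each in edgeR. For *Irf4* WT library 1 stood out at 61.4 CPM against 29.9 CPM in WT library 2 and 21.3 and 25.2 CPM in labelled-deficient libraries. Its log2 ratio was -0.49 in the pair with low macrophage counts and -1.28 in the pair with high ones. *Tcf7*, which encodes TCF-1, an inducer of *Bcl6*, was at 446 and 616 CPM in WT and at 568 and 453 CPM in labelled-deficient libraries, with a log2 fold change of -0.06 (SE 0.22). *Ascl2*, a factor that can induce *Cxcr5* in follicular helper cells, had at most 5 counts in any library and was not tested.

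Cytokine genes gave 2 lower genes at the unadjusted p-value among 13 tested, *Il10* and *Il1r2*, against 2.48% lower among all tested genes. *Il10*, an inhibitory cytokine of Treg cells, was at 12.0 and 5.53 CPM in WT and at 1.21 and 1.17 CPM in labelled-deficient libraries. It had a log2 fold change of -2.88 (SE 0.52), with an adjusted p = 0.911 in edgeR and 0.00557 in DESeq2. *Il1r2*, a decoy receptor for IL-1, was at 28.6 and 19.1 CPM in WT and at 9.11 and 10.7 CPM in labelled-deficient libraries, a log2 fold change of -1.27 (SE 0.30, edgeR adjusted p = 0.911). *Il21* itself, a cytokine of follicular helper cells, had 25 and 6 counts in WT and 4 and 5 counts in labelled-deficient libraries and fell under the count filter. *Il2ra*, the receptor chain for IL-2, a signal that opposes Bcl6, was at 1150 and 1110 CPM in WT and at 1090 and 853 CPM in labelled-deficient libraries, with a log2 fold change of -0.22 (SE 0.17).

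In the remaining lists 0 genes passed the unadjusted threshold in edgeR with the minimum change. *Slamf1*, a SLAM receptor, had a log2 fold change of -0.34 (SE 0.14), and the median of the 6 tested SLAM and SAP family genes was -0.26. Of the positioning genes, *S1pr2*, which holds cells in the germinal centre, was at 31.7 and 35 CPM in WT and at 26.5 and 21.7 CPM in labelled-deficient libraries (log2 fold change -0.47, SE 0.21), and *Cxcl13*, the ligand of CXCR5, had at most 6 counts in any library. The median of the 7 tested positioning genes was -0.08. *Prdm1*, which encodes Blimp-1, the antagonist of Bcl6, was at 5.24 and 3.28 CPM in WT and at 2.36 and 1.90 CPM in labelled-deficient libraries (log2 fold change -1.0, SE 0.44). *Klf2*, which restrains entry into follicles, was at 31.8 and 66.9 CPM in WT and at 57.0 and 69.5 CPM in labelled-deficient libraries (log2 fold change 0.36, SE 0.37). The medians were -0.14 for the 7 antagonists of Bcl6 and -0.12 for the 8 Bcl6 corepressors.

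Genes that Bcl6 represses in T cells, a list that shares members with those above, had a median log2 fold change of -0.25 over 13 genes. *Ccr6*, a chemokine receptor for CCL20, was the only 1 of the 13 lower at the unadjusted p-value, against 2.48% of all tested genes. It was at 46.1 and 47.0 CPM in WT and at 24.1 and 23.9 CPM in labelled-deficient libraries. Its log2 fold change was -0.95 (SE 0.17), with an adjusted p = 0.911 in edgeR and 0.0165 in DESeq2.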

How the data were processed

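Processing notes of the submitters name Trim Galore 0.6.7, STAR 2.7.9a, featureCounts and the build mm10, whereas the paper's methods name mm9. Neither the strand setting nor the release of the annotation is given in the sources used here. The authors deposited whole-number read counts per Ensembl gene for 4 libraries, not normalized and not pooled, with 0 columns left out. Symbols were found for 32799 of 47729 identifiers. Positions and exon lengths are those of GENCODE vM1 (mm9), matched by identifier, and promoter windows those of RefSeq for GRCm38.p6. After filterByExpr and TMM scaling, the test was that of edgeR 4.0.16 (quasi-likelihood, genotype as the only term, Benjamini-Hochberg) in R 4.3.3. Log2 CPM used a prior count of 2. Standard errors are the log2 fold change over the square root of edgeR's F. The fits were tested on simulated counts. DESeq2 1.42.0, other scalings, filters, minimum changes, a replicate block and leaving out each library were alternatives.

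The members and all lists were chosen with earlier results of these data known. The text names the 8 members, list genes with a log2 change of 0.5 or more in size and an unadjusted p-value under 0.05, 12 set genes, *Tfrc*, *Foxp3*, defining markers and the 5 genes closest to *Cxcr5*. *Cd200r1*, *Btla*, *Tox3*, *Tox4*, *Ighm* and *Cd74* were named after their values were seen. A legend of the study gives 2 biological replicates for this experiment, and the labels do not say that replicates came from separate animals. The p-values then measure the spread between these samples. Chi-square over its degrees of freedom was 20.7 between WT replicates and 32.1 between labelled-deficient ones, so replicates differed by more than counting error. Marker lists for Treg cells, B cells, macrophages, dendritic cells, CD8 T cells, NK cells, erythroid cells and proliferation were read as sums of CPM, and 1 matched B cell gene is not reported here by itself.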

Additional observations from a re-analysis of the deposited data

How the results depend on the processing

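*Cxcr5*, *Tox2*, *Sh2d1a*, *Il21r* and *Cd200* kept a negative log2 fold change in all 12 alternatives computed, while *Bcl6* did so in 9, *Slamf6* in 10 and *Tox* in 4, with *Tox* at 0.00 in 3 more. With 1 library left out, *Tox2* ran from -1.0 to -0.58, *Il21r* from -0.52 to -0.20, *Cd200* from -0.32 to -0.13 and *Tox* from -0.22 to 0.19. The members' median (-0.30) ran from -0.49 to -0.21 with 1 library left out and differed little in the other settings, including the replicate block (-0.30).

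At the adjusted p-value edgeR called 0 genes in every setting but those without a filter and with the crossed pairing. DESeq2's Wald test called 6 genes higher and 33 lower, 2 of them follicular list genes, all lower. With every gene kept that had a count, edgeR called 167 higher and 95 lower, with 7 list genes lower, while 650 passed the unadjusted threshold as higher, with 13 list genes lower. Why the filter and the tool moved these counts was not tested. Asking for a log2 change of 1 left, at the unadjusted p-value, 91 genes higher, 104 lower and 2 list genes lower, as fewer changes are that large. With 1 library left out, a fit that assumes the lone library of a genotype to vary like the others, the count of higher genes at the unadjusted threshold ran from 169 to 353 and that of lower genes from 131 to 382. List genes ran from 5 to 14 lower and from 0 to 1 higher, with 5 lower under the replicate block.

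Deviations of same-numbered libraries from the mean of their genotype correlated at -0.61 across genes, and those of crossed libraries at 0.61. With 2 libraries per genotype these are the same measure, which cannot show which libraries were prepared together. Under the replicate block, 70 genes passed the unadjusted threshold as higher and 141 as lower, against 200 and 311 without it. The crossed pairing, chosen with the data known, gave 150 higher and 210 lower genes at the adjusted p-value, with 9 list genes lower, and, at the unadjusted one, 596 higher and 519 lower genes, with 11 list genes lower. Depth limits *Tox2*, with at most 89 counts in a library, and left *Il21* and *Ascl2* untested.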

Other observations

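*Ighm*, the heavy chain gene of IgM, was among the higher counted genes of these sorted T cells, at 1270 and 1540 CPM in WT and at 1240 and 1080 CPM in labelled-deficient libraries. Of the other 13 matched B cell genes, *Cd79b* at 24.1 to 38.5 CPM and *Bank1* at 6.22 to 29.4 CPM were the next most abundant, and 9 stayed under 1 CPM in every library. Counts per gene do not show which part of *Ighm* the reads came from.

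A cluster of co-receptor genes lies near *Cd200* on chromosome 16. *Btla*, *Tigit* and *Cd200r1* are 12.6, 11 and 12.1 Mb from *Tfrc*, as *Cd200* is at 12.7 Mb, and their log2 fold changes were -0.45, -0.82, -0.25 and -0.24 in the order *Btla*, *Tigit*, *Cd200r1*, *Cd200*. For each of them, alleles linked to the floxed *Tfrc* allele and the loss of TfR1 cannot be told apart.

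The summed level of 8 Treg genes, the highest among the marker lists, was 5830 and 6040 CPM in WT and 5470 and 4660 CPM in labelled-deficient libraries. Dendritic cell genes summed to 328 and 159 CPM in WT and to 139 and 1100 CPM in labelled-deficient libraries, most of it *Cd74*. CD8 T cell genes stayed between 11.1 and 12.6 CPM, NK cell genes between 3.09 and 5.33 CPM, and the 3 matched erythroid genes were at 16.8 and 111 CPM in WT and at 42.5 and 273 CPM in labelled-deficient libraries.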
